A study of Rattus norvegicus and Mus musculus with 24 samples.

Results

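The genes described here are 56 components of cell division: the kinases that drive mitosis, the spindle checkpoint, the kinetochore and centromere, the chromosomal passenger complex, condensin, mitotic kinesins, other spindle proteins, regulators of anaphase and mitotic exit, and the machinery of cytokinesis. They were chosen by name and function, but with earlier results of these data known. They are 56 of 18043 gene symbols found in either species' table. The mouse table of 17376 symbols held 54 of them and lacked KIF4A and PTTG1. The rat table of 14931 symbols held 48 and lacked TOP2A, NCAPH, NCAPD2, KIF11, KIF15, HMMR, PTTG1 and ANLN, so 47 genes were listed in both. RACGAP1, which acts with KIF23 at the spindle midzone, was listed at 0 reads in every rat, and PTTG1 (securin) has no value here.

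In mitosis, chromosomes condense, attach to spindle microtubules through kinetochores built on centromeric chromatin, and are held back from separating by the spindle checkpoint until every kinetochore is attached. The anaphase-promoting complex with its activator CDC20 then releases the sister chromatids, and a contractile ring built at the spindle midzone divides the cell. Many of these genes are transcribed mainly in the G2 and M phases, so their transcripts are low in a resting tissue such as the adult kidney, whose tubule cells seldom divide.

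Bulk mRNA sequencing compared Ctns KO with Ctns WT kidney in 4 KO and 4 WT mice and in 8 KO and 8 WT rats. Ctns encodes cystinosin, which carries cystine out of lysosomes, and its loss is the cause of cystinosis. The mice had the C57BL/6 and the rats the Sprague-Dawley background, controls were WT littermates, and neither treatment nor the age or sex of a sequenced animal is given in the labels. The labels name both kidney cortex and proximal tubule cells, while the paper's methods give kidney cortex as the source of the sequenced RNA in both species. The rats carried the numbers 17 to 24 and 25 to 32 (4 KO and 4 WT in each range), a split for which the labels give no reason.

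A mouse library held between 19309449 and 44449859 reads, and a rat library between 24684097 and 40629873. Ctns itself was measured at 15.5 to 16.9 counts per 1000000 reads (CPM) in KO mice and 39.0 to 47.4 CPM in WT mice. In rats its ranges overlapped, at 16.8 to 22.96 CPM in KO and 18.99 to 26.4 CPM in WT, and the part of the gene that is altered is not given in the labels, so its mRNA level does not check the rat genotype. All 10 proximal tubule markers in the mouse table and all 8 in the rat table had reads. So had the markers of macrophages, lymphocytes, fibroblasts, endothelium, distal nephron and podocytes that each table held. None of these was at 0 in every animal of a species, and some markers of these lists were absent from a table. The libraries therefore held transcripts of several kidney cell types.

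Mitotic genes were higher in Ctns KO kidney in both species, across nearly the whole machinery. In mice, 49 of the 53 genes tested rose, against a background of 6.37% of all 13132 symbols, and the median log2 fold change was 2.02 over these 53 genes and 0.01 over all symbols. In rats, 45 of 47 rose, against 15.4% of 11640 symbols, with a median of 2.09 over the genes and -0.02 over all symbols. None fell in either species (background 2.33% in mice and 12.5% in rats). The tests were limma in mice and edgeR in rats. At an unadjusted p under 0.05 the count lower was also 0 in both, and after adjustment DESeq2 gave 0 lower in either species, as did edgeR on the mouse reads. In bulk tissue, fewer cells of a type and less RNA per cell cannot be told apart, and the same holds for more of either.

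A log2 fold change of 2 is a 4-fold difference. For the count that rose in each group of genes below, the background is the same, 6.37% of all symbols in mice and 15.4% in rats. Since a filter on low values used all animals together, 11 of the tested genes in mice and 3 in rats passed it only through the KO animals (in mice MELK, BUB1, TTK, NDC80, CENPI, CENPK, NCAPG, KIF15, KIF18B, KIF2C and CDCA5, in rats CENPA, CENPI and CDCA5). Of the genes that WT animals alone would have passed, 39 of 42 rose in mice and 42 of 44 in rats. Among all symbols that WT animals alone would have passed, 759 of 12979 rose in mice and 1671 of 11489 in rats. The median log2 fold change of these genes was 1.89 in mice and 2.02 in rats, compared with 0.0083 and -0.024 over these symbols. The counts and medians of the gene groups below include the genes that passed only through KO animals. CDC25C, the phosphatase that activates CDK1, was below the filter in mice, with 0 to 5 reads in WT and 11 to 35 reads in KO mice.

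**Figure D1:**
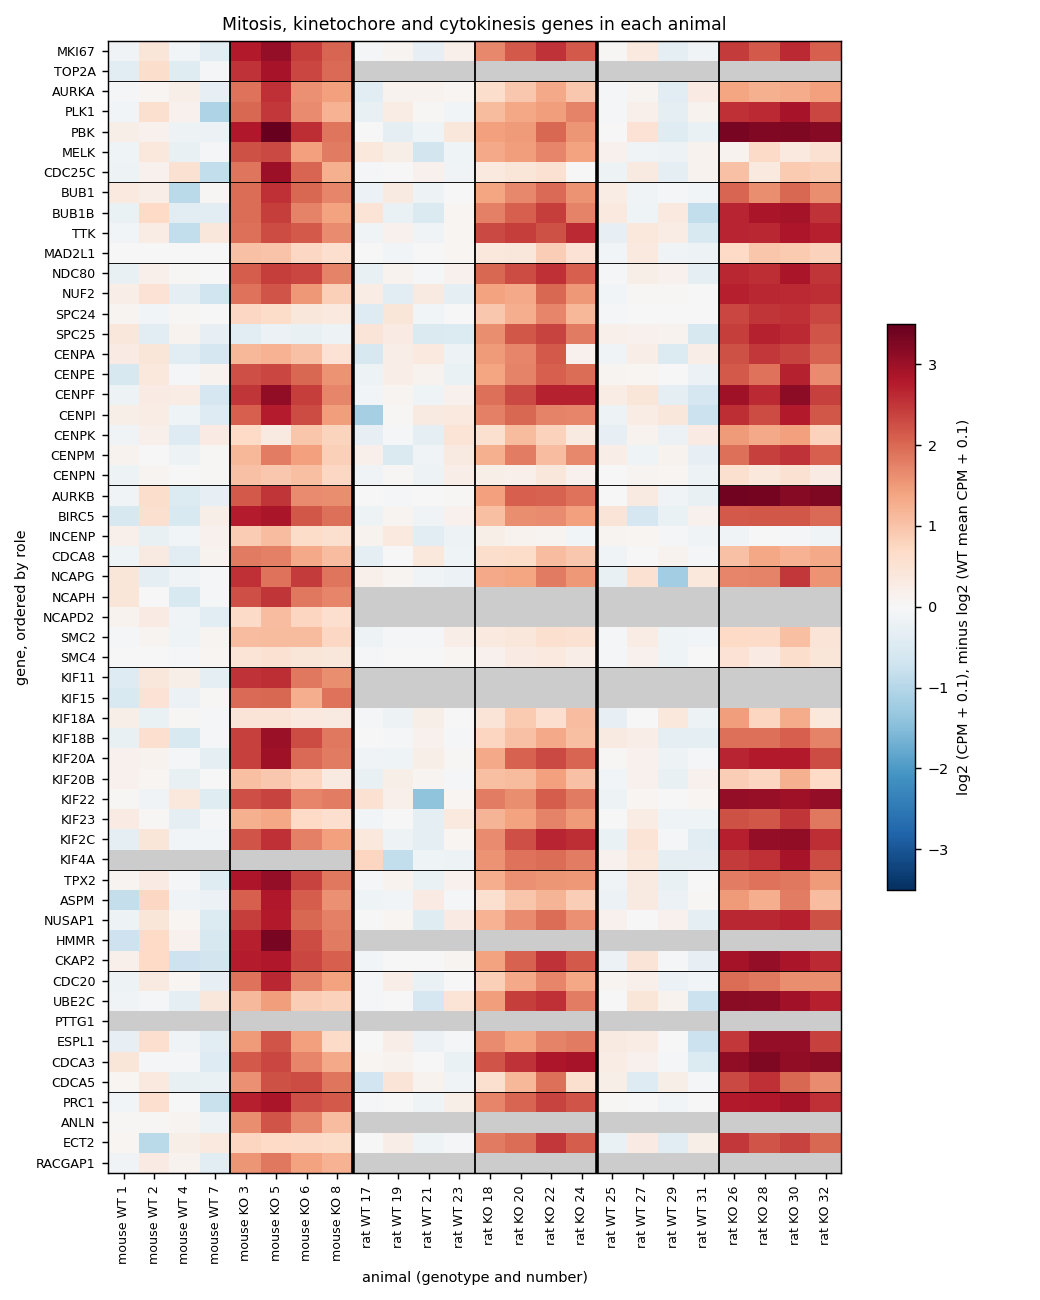
Each row is a gene and each column an animal; colour is log2 (CPM + 0.1) minus log2 of the WT mean (CPM + 0.1) of the same species and, for rats, of the same number range, with grey for genes absent from a table or at 0. KO columns are red for nearly every gene, and SPC25 in mice, INCENP and CENPN in rats, MELK in rats 25 to 32 and SMC4 in both species are among the pale cells.

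The levels of individual animals were separated by genotype. Every KO mouse lay above every WT mouse for 52 of 53 genes, compared with 15.6% of all tested symbols. Every KO rat lay above every WT rat for 37 of 47, compared with 5.25%. The genes that passed the filter only through KO animals are included, and the counts were not repeated without them. The summed level of the 54 genes was 148 to 180 CPM in WT mice and 288 to 458 CPM in KO mice. In rats, the 48 genes summed to 141 to 190 CPM in WT and 266 to 525 CPM in KO. KO animals also differed among themselves. Mouse 5 had the highest value of the 4 KO mice for 43 of 54 genes. Among the 8 KO rats the highest value fell to rat 26, 28, 30 or 32 for all 47 genes with reads. This ranking was not made over all symbols, so it is not shown to be particular to these genes.

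**Figure D2:**
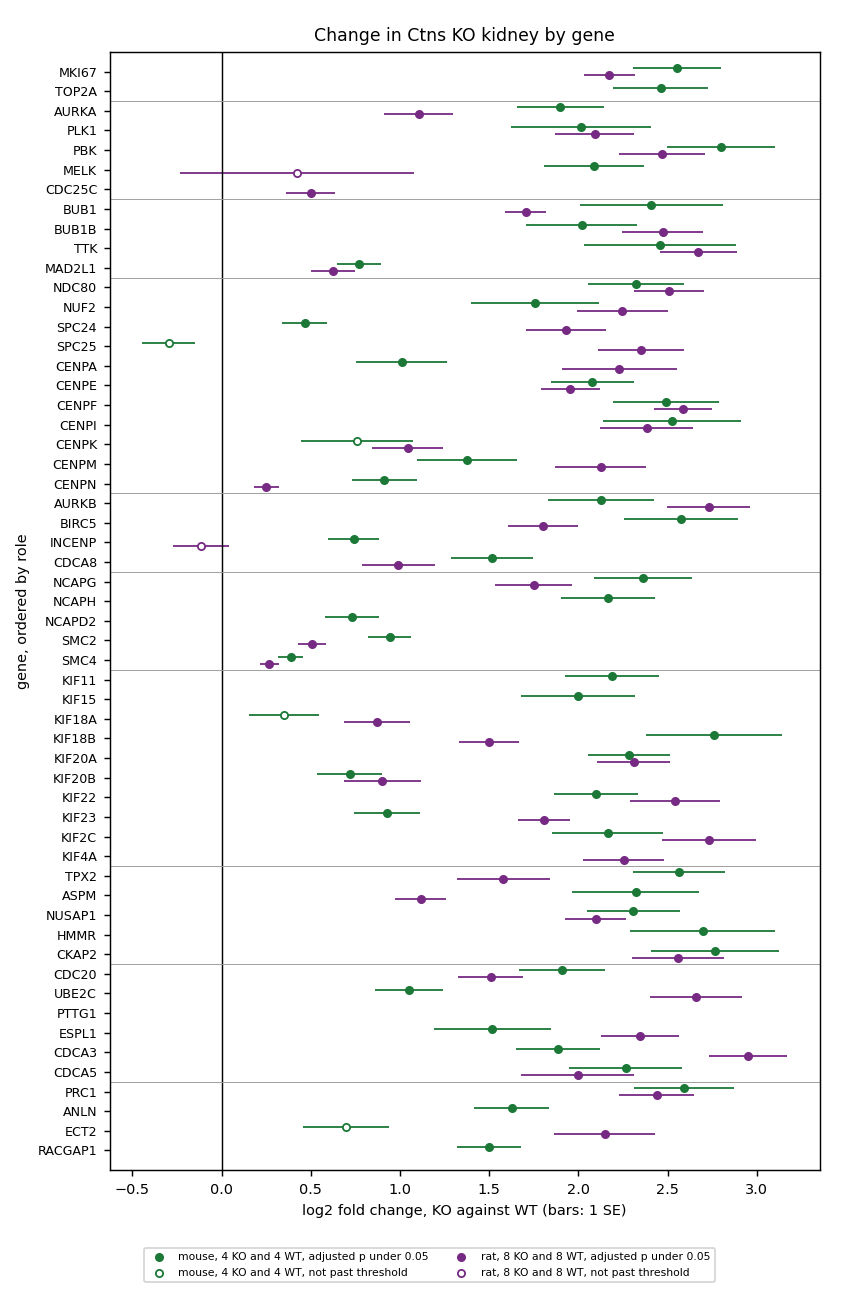
The log2 fold change of each gene in KO against WT, with bars of 1 standard error, in mouse (green) and rat (purple). Filled points passed an adjusted p of 0.05; open points, such as SPC25, CENPK, KIF18A and ECT2 in mouse and MELK and INCENP in rat, did not.

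MKI67 and TOP2A are general marks of cycling cells. MKI67, which coats mitotic chromosomes, was at 4.96, 7.30, 5.04 and 4.16 CPM in WT mice 1, 2, 4 and 7 and at 37.3, 45.7, 29.3 and 22.3 CPM in KO mice 3, 5, 6 and 8. The lowest KO mouse was thus well above the highest WT mouse, a log2 difference of 2.55 ± 0.25 (SE; adjusted p = 0.000398). In rats MKI67 had a lowest, median and highest level of 4.11, 5.26 and 7.09 CPM in WT and 16.2, 24.97 and 34.9 CPM in KO, again without overlap (2.17 ± 0.14, adjusted p = 5.71e-08). TOP2A, the topoisomerase that untangles sister chromatids, was measured in mice only, at 2.37, 4.87, 2.33 and 3.08 CPM in WT and 18.9, 23.8, 16.5 and 12.8 CPM in KO, with no overlap (2.46 ± 0.27, adjusted p = 0.000509).

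Mitotic kinases rose in both species, with the exception of MELK over all rats. All 4 tested in mice rose (median log2 fold change 2.05) and 4 of 5 in rats (median 1.10). PLK1, which acts in centrosome maturation, spindle assembly and mitotic exit, was at 0.811, 1.32, 0.983 and 0.360 CPM in WT and 3.83, 5.32, 2.97 and 2.16 CPM in KO mice. Its lowest, median and highest levels in rats were 0.901, 1.22 and 1.53 CPM in WT and 2.86, 5.29 and 9.02 CPM in KO. The PLK1 groups did not overlap in either species, with a change of 2.01 ± 0.39 in mice (adjusted p = 0.00887) and 2.09 ± 0.22 in rats (adjusted p = 5.58e-06). In mice 7.09% of the exonic bases of Plk1 also belong to a gene on the opposite strand, as do 13.4% of Ncapg, 12.7% of Cdc25c and 11.1% of Prc1, and the strand setting of the counting is not given in the sources used here.

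AURKA, the spindle pole kinase, was at 0.901, 0.964, 1.08 and 0.742 CPM in WT and 3.73, 5.89, 2.97 and 2.67 CPM in KO mice (1.90 ± 0.24, adjusted p = 0.000272). In rats its level was 2.60, 3.73 and 5.51 CPM (lowest, median and highest) in WT and 5.26, 9.69 and 12.2 CPM in KO, so that the groups overlapped by 1 KO rat, with a change of 1.10 ± 0.19 (adjusted p = 0.000595). PBK, a kinase of dividing cells, had the largest change of the 53 genes tested in mice. By edgeR on the mouse reads, with a mean of at least 10 reads, CDC25C had the larger estimate (3.14 ± 0.66 against 2.92 ± 0.34 for PBK). PBK was at 0.631, 0.609, 0.459 and 0.450 CPM in WT and 4.35, 7.08, 3.71 and 2.22 CPM in KO mice, a log2 difference of 2.80 ± 0.30 (adjusted p = 7.87e-05).

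MELK, a kinase related to the AMP-activated kinases and expressed in proliferating cells, behaved differently in rats. In mice it was at 0.391, 0.609, 0.360 and 0.427 CPM in WT and at 2.49, 2.60, 1.38 and 1.84 CPM in KO (2.09 ± 0.28, adjusted p = 0.000381). In rats 17 to 24 it was at 0.583 to 1.28 CPM in WT and 2.53 to 3.33 CPM in KO, whereas in rats 25 to 32 it was at 9.22 to 11.6 CPM in WT and 11.3 to 16.8 CPM in KO. The WT values of the ranges were far apart, and over all 16 rats the change of 0.42 ± 0.65 did not pass the test (adjusted p = 0.664). With the number range as a covariate it did, at a log2 fold change of 0.75. CDC25C in rats was at 1.49, 2.10 and 2.46 CPM (lowest, median and highest) in WT and 2.15, 3.08 and 4.05 CPM in KO, an overlapping but higher level (0.50 ± 0.14, adjusted p = 0.0122).

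The spindle checkpoint kinases BUB1, BUB1B and TTK rose by more than MAD2L1, the MAD2 protein that inhibits CDC20. All 4 rose in both species, with a median log2 fold change of 2.21 in mice and 2.09 in rats. In mice BUB1 and TTK passed the filter only through KO animals, while BUB1B (2.02) and MAD2L1 would have passed on WT mice alone. BUB1 was at 0.391, 0.355, 0.0983 and 0.292 CPM in WT and 1.40, 2.14, 1.44 and 1.16 CPM in KO mice (2.41 ± 0.40, adjusted p = 0.00187). In rats it was at 1.88, 2.03 and 2.72 CPM in WT and 5.84, 7.05 and 9.25 CPM in KO (lowest, median and highest), with a wide gap between genotypes (1.70 ± 0.11, adjusted p = 6.95e-08). TTK, which recruits the checkpoint proteins to kinetochores, was at 0.396, 0.481 and 0.837 CPM in WT rats and 2.43, 3.79 and 5.06 CPM in KO rats (2.67 ± 0.22, adjusted p = 4.61e-07). MAD2L1 was at 4.54, 4.41, 4.42 and 4.52 CPM in WT and 9.17, 9.07, 7.39 and 6.82 CPM in KO mice, a small difference with very little spread among WT mice (0.77 ± 0.12, adjusted p = 0.00142). Its change in rats was 0.63 ± 0.12 (adjusted p = 0.00122), and 2 KO rats lay within the WT range of 4.56 to 6.65 CPM.

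Kinetochore and centromere genes had the widest range of changes of the 10 groups in mice. There 9 of 11 rose (median 1.38, from -0.30 to 2.53), and in rats all 11 rose (median 2.23, from 0.25 to 2.59). CENPF, a kinetochore and nuclear envelope protein of G2 and M phase, was at 1.11, 1.57, 1.54 and 0.810 CPM in WT and 7.66, 11.5, 7.24 and 4.36 CPM in KO mice, without overlap (2.49 ± 0.29, adjusted p = 0.000371). In rats CENPF was at 1.22, 2.02 and 2.56 CPM in WT and 7.93, 12.8 and 17.3 CPM in KO (2.59 ± 0.16, adjusted p = 4.50e-08), the largest change of this group in rats. CENPA, the histone H3 variant that marks centromeres, was at 2.22, 2.49, 1.38 and 1.17 CPM in WT and 4.19, 4.32, 3.80 and 2.64 CPM in KO mice. The lowest KO mouse was close to the highest WT mouse, and the change of 1.01 ± 0.26 (adjusted p = 0.0268) was lost when WT mouse 4 or 7 or KO mouse 3, 5 or 6 was left out, with values of 0.82 to 0.98. In rats CENPA was scarce, at 0.120, 0.246 and 0.307 CPM in WT and 0.257, 1.32 and 1.76 CPM in KO, and it rose by 2.23 ± 0.32 (adjusted p = 0.000118) with 1 KO rat inside the WT range.

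The NDC80 complex, which binds the microtubule end, has 4 subunits, and these did not move alike in mice. NDC80 was at 0.271, 0.406, 0.360 and 0.338 CPM in WT and 1.81, 2.26, 2.15 and 1.36 CPM in KO mice (2.32 ± 0.27, adjusted p = 0.00013), and NUF2, its partner at the microtubule end, rose by 1.76 ± 0.36 (adjusted p = 0.00818). SPC25, at the other end of the complex, was at 65.5, 38.5, 54.3 and 40.7 CPM in WT and 37.8, 43.0, 41.7 and 44.3 CPM in KO mice, overlapping ranges with a difference of -0.30 ± 0.15 (adjusted p = 0.299). SPC24, its direct partner, was at 4.72, 4.11, 4.52 and 4.39 CPM in WT and 7.41, 7.04, 5.86 and 5.63 CPM in KO mice. Its change was small, 0.47 ± 0.13 (adjusted p = 0.0352), and was lost without WT mouse 2, 4 or 7 or KO mouse 3, 5 or 6 (0.40 to 0.50). Per length of exon, WT mice held 15.6 ± 3.95 CPM per kilobase (SD, n = 4) of SPC25, compared with 1.72 ± 0.10 of SPC24, 0.102 ± 0.043 of NUF2 and 0.0529 ± 0.0087 of NDC80. The level listed for SPC25 thus stood far above those of its partners in mouse kidney. None of its exonic bases is shared with another gene of GENCODE vM21 on either strand. The annotation used in counting is not given in the sources used here, and the cause of the high level was not tested.

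In rats all 4 subunits rose. NDC80 was at 0.600, 0.814 and 1.11 CPM in WT and 3.27, 5.35 and 7.57 CPM in KO (2.51 ± 0.20, adjusted p = 3.52e-07). SPC25 was at 0.430, 0.856 and 0.946 CPM in WT and 2.21, 3.95 and 5.92 CPM in KO (2.35 ± 0.24, adjusted p = 3.71e-06), with no overlap. SPC24 rose by 1.93 ± 0.22 and NUF2 by 2.25 ± 0.25 (adjusted p = 1.36e-05 and 9.87e-06). CENPN and CENPK, members of the constitutive centromere network, had the smallest changes of this group in rats. CENPN, which reads the centromeric nucleosome, rose by 0.25 ± 0.07 (adjusted p = 0.0153), and CENPK by 1.04 ± 0.20 (adjusted p = 0.00108). CENPK did not pass in mice, at 0.391, 0.507, 0.295 and 0.562 CPM in WT and 0.777, 0.574, 0.950 and 0.830 CPM in KO, where the lowest KO value lay just above the highest WT value (0.76 ± 0.31, adjusted p = 0.173).

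The chromosomal passenger complex corrects faulty attachments and takes part in cytokinesis. Its kinase AURKB was at 0.571, 1.01, 0.426 and 0.495 CPM in WT and 3.11, 3.98, 2.21 and 2.16 CPM in KO mice (2.13 ± 0.30, adjusted p = 0.000565). In rats AURKB was at 0.495, 0.784 and 0.849 CPM in WT and 2.41, 5.10 and 7.29 CPM in KO (2.73 ± 0.23, adjusted p = 6.06e-07). It was separated by genotype in both species, and so was BIRC5 (survivin), the subunit that docks the complex on chromatin, at 0.481, 1.17, 0.491 and 0.900 CPM in WT and 5.70, 6.08, 3.77 and 3.17 CPM in KO mice (2.57 ± 0.32, adjusted p = 0.0003) and at 1.18, 1.70 and 2.52 CPM in WT and 3.66, 6.58 and 8.57 CPM in KO rats (1.80 ± 0.19, adjusted p = 6.14e-06). INCENP, the scaffold that activates AURKB, rose in mice from 5.86, 4.31, 4.85 and 5.80 CPM to 9.74, 11.1, 8.22 and 7.68 CPM (0.74 ± 0.14, adjusted p = 0.0047). In rats it was at 14.4, 25.1 and 30.3 CPM in WT and 17.8, 23.8 and 28.1 CPM in KO, fully overlapping (-0.11 ± 0.16, adjusted p = 0.619).

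Condensin, the ring complex that compacts mitotic chromosomes, changed least in the subunit SMC4 in both species. All 5 genes rose in mice and all 3 tested in rats. SMC4 was at 22.2, 21.7, 20.7 and 23.1 CPM in WT and 30.5, 31.7, 29.4 and 29.03 CPM in KO mice, a tight and separate pair of groups (0.39 ± 0.07, adjusted p = 0.00279). In rats SMC4 was at 24.8, 30.3 and 32.6 CPM in WT and 33.5, 37.5 and 42.1 CPM in KO (0.27 ± 0.05, adjusted p = 0.0012). SMC2 rose by 0.94 ± 0.12 in mice and by 0.51 ± 0.08 in rats (adjusted p = 0.000255 and 0.000221). The condensin I subunit NCAPD2 was measured in mice, at 12.8, 14.6, 10.8 and 9.04 CPM in WT and 18.8, 25.3, 20.1 and 17.9 CPM in KO (0.73 ± 0.15, adjusted p = 0.0106). NCAPG, of the same subcomplex, changed more, by 2.36 ± 0.27 in mice and 1.75 ± 0.22 in rats (adjusted p = 0.00013 and 2.77e-05). SMC2 and SMC4 belong to both condensins, while NCAPG, NCAPH and NCAPD2 belong to condensin I alone.

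Of the kinesins, motor proteins that slide or shorten spindle microtubules, 8 of 9 rose in mice (median 2.10) and 8 of 8 in rats (median 2.03). KIF20A, which carries the passenger complex to the midzone, was at 1.80, 1.78, 1.57 and 1.28 CPM in WT and 8.80, 13.4, 6.59 and 5.90 CPM in KO mice (2.28 ± 0.23, adjusted p = 6.42e-05). In rats it was at 1.78, 2.14 and 2.58 CPM in WT and 5.20, 11.03 and 16.2 CPM in KO (2.31 ± 0.20, adjusted p = 8.68e-07). The groups were far apart in both species. In mice 29.3% of the exonic bases of Kif20a also belong to Cdc23 on the opposite strand. KIF22, a chromosome arm motor, was at 0.811, 0.710, 1.05 and 0.562 CPM in WT and 4.09, 4.44, 2.79 and 2.96 CPM in KO mice (2.10 ± 0.23, adjusted p = 0.000104). In rats KIF22 was at 0.276, 0.691 and 1.36 CPM in WT and 2.97, 5.03 and 6.20 CPM in KO (2.54 ± 0.25, adjusted p = 2.95e-06). Neither comparison overlapped.

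KIF18B, which shortens astral microtubules, was among the 3 largest changes of the 53 genes tested in mice, at 0.180, 0.406, 0.131 and 0.225 CPM in WT and 1.66, 2.60, 1.53 and 1.10 CPM in KO (2.76 ± 0.38, adjusted p = 0.000482). In mice KIF18B passed the filter only through KO animals. KIF2C, a microtubule depolymerase of the centromere, was among the 3 largest in rats, at 0.399, 0.581 and 1.03 CPM in WT and 1.89, 4.38 and 6.87 CPM in KO (2.73 ± 0.26, adjusted p = 2.2e-06). KIF18A, which dampens chromosome movement at metaphase, did not pass in mice. It was at 1.35, 0.964, 1.18 and 1.12 CPM in WT and 1.61, 1.61, 1.502 and 1.45 CPM in KO, a narrow gap between the groups (0.35 ± 0.20, adjusted p = 0.341), and it rose in rats (0.87 ± 0.18, adjusted p = 0.00218). KIF20B rose by 0.72 ± 0.18 in mice (adjusted p = 0.0254), a call that was lost without WT mouse 4 or KO mouse 3, 5 or 6 (0.62 to 0.72), and by 0.90 ± 0.22 in rats (adjusted p = 0.00499).

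Spindle proteins had the highest median change of the 10 groups in mice, 2.56 with all 5 higher, and in rats all 4 tested rose (median 1.84). CKAP2, which stabilises microtubules, was at 0.631, 0.964, 0.295 and 0.315 CPM in WT and 4.30, 4.48, 3.19 and 2.698 CPM in KO mice (2.76 ± 0.36, adjusted p = 0.000458). In rats it was at 0.920, 1.03 and 1.72 CPM in WT and 2.82, 7.13 and 11.1 CPM in KO, again separate (2.56 ± 0.26, adjusted p = 3.41e-06). TPX2, the activator of AURKA, rose by 2.56 ± 0.26 in mice and 1.58 ± 0.26 in rats, and ASPM, of the spindle pole, by 2.32 ± 0.36 and 1.12 ± 0.14.

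Genes of anaphase onset and mitotic exit rose in all 5 cases tested in each species, with a median of 1.89 in mice and 2.35 in rats. CDC20 was at 1.68, 2.43, 2.03 and 1.57 CPM in WT and 7.46, 12.5, 6.62 and 5.25 CPM in KO mice, with KO mouse 5 well above the others (1.91 ± 0.24, adjusted p = 0.000392). In rats CDC20 was at 4.15, 5.52 and 6.92 CPM in WT and 8.82, 17.7 and 24.02 CPM in KO (1.51 ± 0.18, adjusted p = 2.19e-05). UBE2C, the ubiquitin-conjugating enzyme of the anaphase-promoting complex, was at 2.16, 2.28, 1.90 and 3.13 CPM in WT and 5.33, 6.70, 4.41 and 4.24 CPM in KO mice (1.05 ± 0.19, adjusted p = 0.00338). Its rats were further apart, at 0.429, 0.776 and 1.13 CPM in WT and 2.37, 5.45 and 7.77 CPM in KO (2.66 ± 0.26, adjusted p = 2.55e-06), and in mice 22.8% of the exonic bases of Ube2c also belong to Tnnc2 on the opposite strand. CDCA3, a trigger of mitotic entry, had the largest change in rats, at 0.786, 1.02 and 1.51 CPM in WT and 4.72, 9.41 and 12.7 CPM in KO (2.95 ± 0.22, adjusted p = 2.02e-07). ESPL1 is separase, the protease that cleaves cohesin. It rose by 1.52 ± 0.33 in mice (adjusted p = 0.0118) and by 2.35 ± 0.22 in rats (adjusted p = 1.8e-06).

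In cytokinesis, 3 of 4 genes rose in mice and both genes tested rose in rats. PRC1, which bundles the midzone microtubules, was at 1.17, 1.93, 1.24 and 0.697 CPM in WT and 8.91, 9.83, 6.35 and 5.96 CPM in KO mice (2.59 ± 0.28, adjusted p = 0.000183). In rats it was at 2.52, 3.25 and 3.61 CPM in WT and 9.47, 17.96 and 26.8 CPM in KO (2.44 ± 0.21, adjusted p = 6.06e-07). The genotypes were separate in both. ANLN (anillin), a scaffold of the contractile ring, was at 1.56, 1.57, 1.64 and 1.33 CPM in WT and 4.92, 7.31, 5.09 and 3.35 CPM in KO mice (1.63 ± 0.21, adjusted p = 0.000285). ECT2 is the exchange factor that activates RhoA for furrowing. It was at 6.46, 3.20, 7.24 and 7.94 CPM in WT and 10.5, 10.1, 9.87 and 9.67 CPM in KO mice, where WT mouse 2 stood low and the change of 0.70 ± 0.24 did not pass (adjusted p = 0.116). ECT2 passed without WT mouse 2 (0.42) and, with all mice, by DESeq2 (0.58) and on log2(value + 1). In rats ECT2 was at 1.57, 2.30 and 4.06 CPM in WT and 6.42, 12.0 and 18.97 CPM in KO (2.15 ± 0.28, adjusted p = 4.93e-05).

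**Figure D3:**
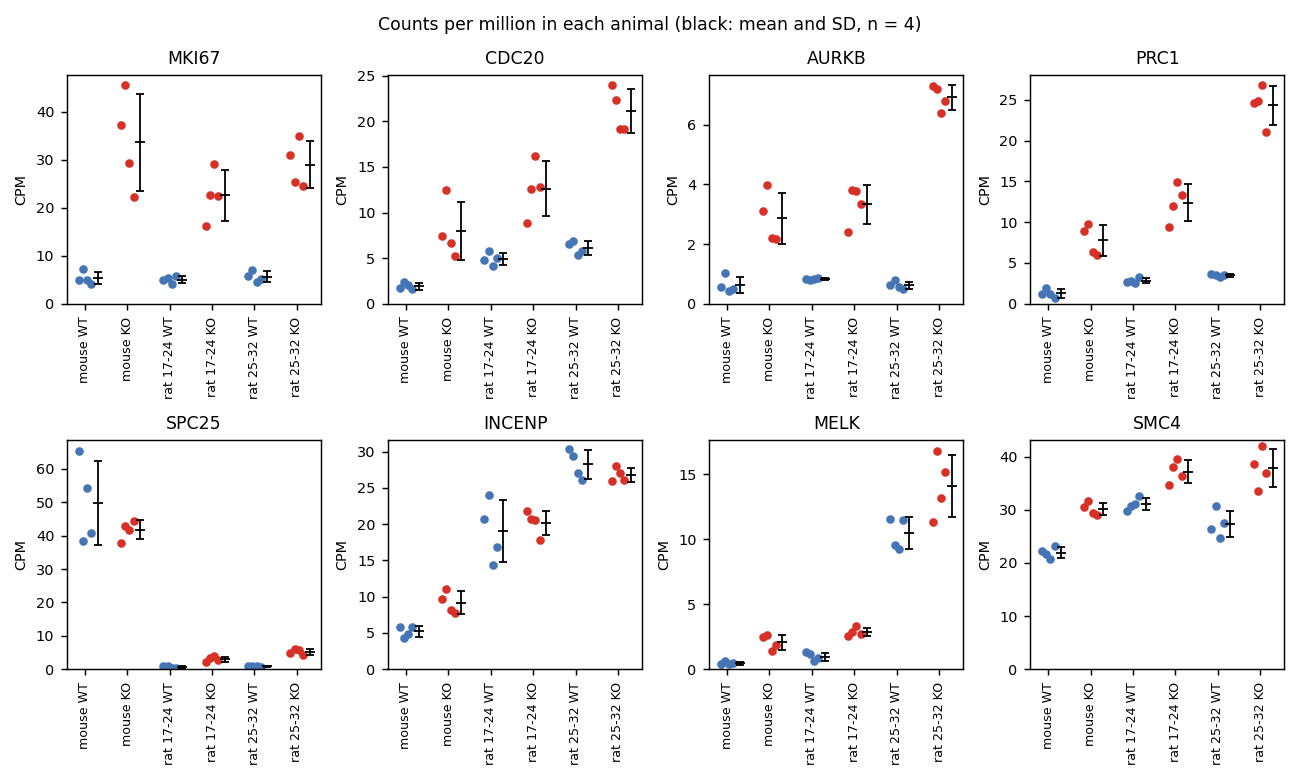
CPM of 8 genes in each WT (blue) and KO (red) animal, with rats split by number range; black marks give mean and SD of 4 animals. MKI67, CDC20, AURKB and PRC1 are separated by genotype throughout, while SPC25 in mice and INCENP in rats overlap and MELK follows the number range in rats.

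The rat number ranges were compared since the labels do not say what they stand for. In rats 17 to 24, 41 of 47 genes rose (background 5.10%) and 0 fell (background 1.93%, with 0 also at an unadjusted p under 0.05 by edgeR), with a median log2 fold change of 1.68. Those that did not pass were CDC25C, CENPK, CENPN, INCENP, SMC4 and KIF18A. In rats 25 to 32, 45 of 47 rose (background 23.8%) and 0 fell (background 26.3%, with 1 at an unadjusted p under 0.05 by edgeR, INCENP), with a median of 2.35. The 3 largest changes were those of CDCA3 (2.73), TTK (2.60) and KIF2C (2.52) in rats 17 to 24 and AURKB (3.30), PBK (3.24) and CDCA3 (3.08) in rats 25 to 32. The genotypes did not overlap for 42 genes in rats 17 to 24 (8.51% of all symbols) and for 45 in rats 25 to 32 (35.0% of all symbols). The genes tested include CENPA, CENPI and CDCA5, which passed the filter only through KO rats.

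WT rats of both ranges had similar sums over the 48 genes, 141 to 157 CPM in rats 17 to 24 and 156 to 190 CPM in rats 25 to 32. The KO rats differed more, with 266 to 373 CPM in rats 17 to 24 and 422 to 525 CPM in rats 25 to 32. The fitted change was larger in rats 25 to 32 for 43 of 47 genes, and MELK, INCENP, KIF20B and ECT2 were the others. The same share was not counted over all symbols. The median difference was 0.35 over the 47 genes and -0.0058 over all 11640 symbols. Of all symbols, 5829 were called in rats 25 to 32 and 819 in rats 17 to 24. The difference itself passed the test for 10 genes: 9 changed more in rats 25 to 32 (background 7.41%) and 1, MELK, changed more in rats 17 to 24 (background 7.77%).

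PBK had the largest such difference. It was at 0.999 to 1.70 CPM in WT and 3.66 to 5.44 CPM in KO rats 17 to 24, and at 0.485 to 1.01 CPM in WT and 7.01 to 7.71 CPM in KO rats 25 to 32, a difference in log2 fold change of 1.55 ± 0.29 (adjusted p = 0.00289). AURKB was at 0.780 to 0.849 CPM in WT and 2.41 to 3.82 CPM in KO rats 17 to 24, and at 0.495 to 0.788 CPM in WT and 6.38 to 7.29 CPM in KO rats 25 to 32 (1.32 ± 0.24, adjusted p = 0.00258). The KO values of both genes were thus higher in rats 25 to 32 with no overlap, while their WT values lay lower than in rats 17 to 24 with a small overlap. PLK1 (1.06 ± 0.23) and SPC24 (1.03 ± 0.25) also passed, at adjusted p values of 0.00729 and 0.0114. For MELK the difference was -1.30 ± 0.26 (adjusted p = 0.00425). These 5 calls held whichever of the 16 rats was left out.

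The other calls were less firm. NUF2 (0.93), KIF18B (0.78), NUSAP1 (0.83), ESPL1 (1.08) and PRC1 (0.53) passed with all rats, and they lost the call in 9, 8, 8, 10 and 13 of the 16 fits that left out 1 rat. The number of genes that changed more in rats 25 to 32 was 4 without WT rat 17, KO rat 18 or KO rat 28 and 5 without KO rat 20 or KO rat 24. MKI67, by contrast, had nearly equal changes of 2.15 ± 0.17 and 2.19 ± 0.17 in the 2 ranges, as did BUB1 with 1.69 ± 0.16 and 1.72 ± 0.16, and neither difference passed the test (0.05 ± 0.23 and 0.04 ± 0.22).

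**Figure D4:**
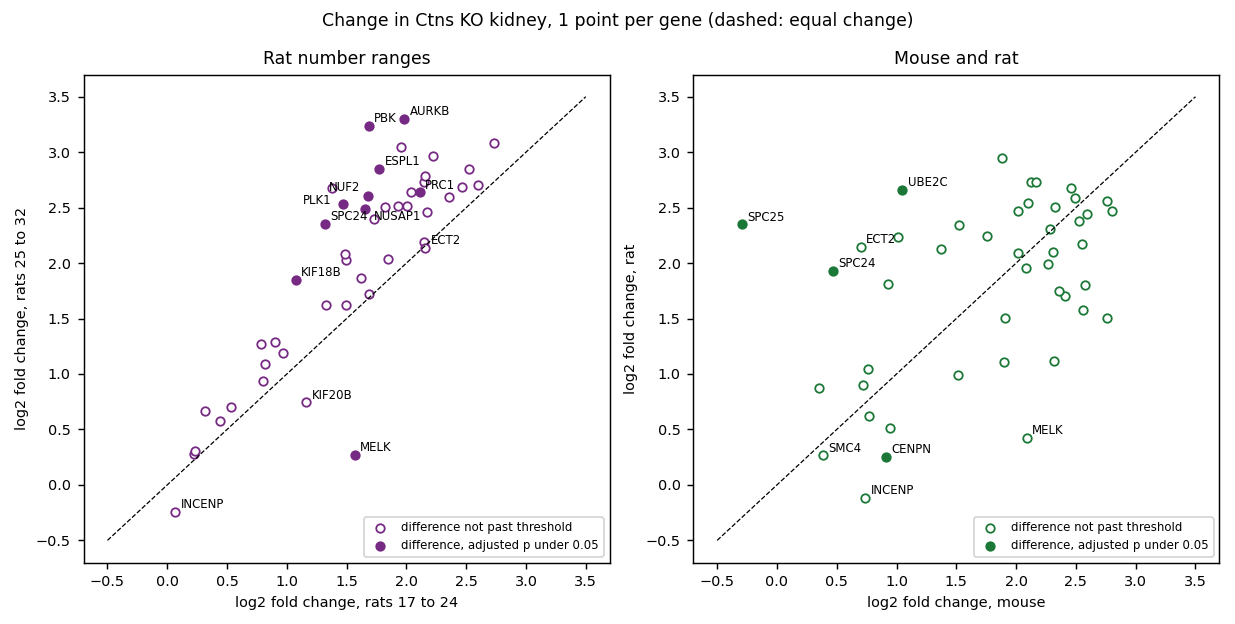
Left, the log2 fold change of 47 genes in rats 17 to 24 (x) and rats 25 to 32 (y); right, that of 45 genes in mouse (x) and rat (y), with a dashed line of equal change. Most points lie above the line on the left, filled where the difference passed an adjusted p of 0.05; on the right SPC25, SPC24 and UBE2C lie above it and CENPN below it among the filled points.

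Between species, 39 of the 45 genes tested in both rose in both. A rise was called only in the rat test for 4 (SPC25, CENPK, KIF18A and ECT2) and only in the mouse test for 2 (MELK and INCENP). Of all symbols, 6.37% rose in mice and 15.4% in rats, and the share that rose in both was not counted. The difference between the changes passed the test for 4 genes. It was larger in rats for SPC25 (2.66 ± 0.37, adjusted p = 0.000113), UBE2C (1.60 ± 0.40, adjusted p = 0.0376) and SPC24 (1.41 ± 0.33, adjusted p = 0.024), against a background of 1.24%. It was larger in mice for CENPN (rat minus mouse -0.62 ± 0.13, adjusted p = 0.0143), against a background of 0.745%. CENPN was at 1.08, 1.32, 1.24 and 1.26 CPM in WT and 2.59, 2.45, 2.64 and 2.11 CPM in KO mice, while rats held 6.36, 7.48 and 9.40 CPM in WT and 8.79, 9.27 and 10.7 CPM in KO, so the mouse groups were separate and the rat groups overlapped. For the others the difference did not pass, which does not show that the species acted alike: for MELK it was -1.13 ± 1.10, for INCENP -0.78 ± 0.26 and for ECT2 1.49 ± 0.44 (adjusted p = 0.639, 0.116 and 0.0807). With edgeR on the reads the difference of ECT2 was 1.59 and passed. The calls of SPC25 and CENPN held without any 1 animal, whereas UBE2C lost its call in 11 and SPC24 in 4 of 24 such fits. On log2(value + 1) the calls of CENPN, SPC24 and UBE2C were lost, and the difference of CENPN was 0.012. On that scale BUB1 (0.11), NDC80 (0.078) and TTK (0.064) gained a call, as larger in rats.

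Across these 45 genes the log2 fold changes of mouse and rat had a Pearson correlation of 0.45 and a Spearman correlation of 0.40, compared with a Pearson correlation of 0.54 over all 10598 symbols tested in both. The points are genes that share libraries, so this is a description. Genes with a higher WT level per exon length in mice had smaller changes in mice (Spearman -0.54 over 53 genes), where both measures use the same WT mice. The same WT mouse level and the change in rats, which share no animal, had a Spearman correlation of -0.17 over 46 genes.

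Genes of the same pathway outside the 56 followed in part. The background was 6.37% higher and 2.33% lower in mice, and 15.4% higher and 12.5% lower in rats. Of other kinetochore and centromere genes, 9 of 26 rose in mice, led by SKA3 (2.89), OIP5 (2.38) and SGO1 (2.13), and 16 of 23 in rats, led by CENPT (2.98), CENPW (2.68) and HJURP (2.60). Of other spindle and cytokinesis genes, 10 of 16 rose in mice and 12 of 15 in rats, with GTSE1 at 2.38 and 2.74. In the group around cyclin B and CDK1, the kinase that starts mitosis, 5 of 10 rose in mice, led by CCNB1 (2.82), CDK1 (2.63) and CCNB2 (2.51), while the histone kinase gene HASPIN fell by 0.66. In rats 6 of 7 rose, with CDK1 at 2.45, PKMYT1 at 1.96 and BORA at 0.82, and HASPIN was among them (0.52).

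Other complexes that work in mitosis but also outside it were listed for comparison. Of 14 core subunits of the anaphase-promoting complex, 0 rose in either species by limma or edgeR (background 6.37% in mice and 15.4% in rats), with median log2 fold changes of 0.06 in mice and -0.0033 in rats, and ANAPC1 fell by 0.21 in rats. Of condensin II and cohesin genes, NCAPG2 alone rose, among 12 in mice (1.02) and 10 in rats (0.31), and SMC1A fell by 0.17 in rats, counts that are near the same background. In rats 25 to 32, 5 of the 10 condensin II and cohesin genes fell, while 2 of the 14 of the anaphase-promoting complex rose and 2 fell, in a range where 23.8% of all symbols rose and 26.3% fell.

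Markers of several other cell types moved with genotype as well. Among all symbols, 6.37% rose and 2.33% fell in mice, and 15.4% rose and 12.5% fell in rats. Macrophage markers rose for 8 of 9 genes in mice and 9 of 10 in rats, and their summed level was 136 to 139 CPM in WT and 211 to 253 CPM in KO mice. In rats it was 121 to 166 CPM in WT and 188 to 220 CPM in KO rats 17 to 24, and 160 to 197 CPM in WT and 366 to 539 CPM in KO rats 25 to 32. Lymphocyte markers rose for 0 of 9 genes in mice by limma and 6 of 7 in rats, at 17.8 to 34.4 CPM in WT and 29.7 to 67.1 CPM in KO rats. In mice their sums were 7.96 to 11.5 CPM in WT and 10.5 to 16.6 CPM in KO. Fibroblast markers rose for 4 of 7 and 6 of 7 genes, with sums of 165 to 201 CPM in WT and 311 to 357 CPM in KO mice and 229 to 292 CPM in WT and 326 to 551 CPM in KO rats.

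The markers of injured tubule cells rose for 4 of 5 genes in mice and 4 of 4 in rats, with sums of 29.8 to 46.1 CPM in WT and 70.0 to 80.0 CPM in KO mice, and 21.9 to 34.2 CPM in WT and 59.6 to 387 CPM in KO rats. Proximal tubule markers fell for 6 of 8 genes in rats and 0 of 10 in mice, with sums of 10789 to 14579 CPM in WT and 7796 to 10129 CPM in KO rats, and 13507 to 17762 CPM in WT and 13323 to 14304 CPM in KO mice. Endothelial, distal nephron and podocyte markers were called in 1 of 6 (KDR lower), 0 of 6 and 0 of 5 genes in mice. In rats they were called in 1 of 5 (EMCN lower), 3 of 4 (higher) and 0 of 5 genes. A list with 1 call among so few genes cannot be told from the background, 2.33% lower in mice and 12.5% lower in rats. The part of these cell types in the higher mitotic transcripts was not tested.

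The promoters of the genes were searched for 2 elements that are found in many G2 and M phase promoters. These are the cell cycle genes homology region (CHR), searched as TTTGAA, and the CCAAT box. Any relation of the elements to the change in KO was not tested. Both strands were searched in the RefSeq rat promoters of assembly GRCr8, from 250 bases before to 50 bases after the start of the gene, and 50 of the 56 genes had an entry. A CHR match was found in 36 of the 50 (72.0%), compared with 18.3% of all 33469 promoters and 11.6% of the 9067 promoters of symbols tested in rats. CCAAT was found in 34 of 50 (68.0%), compared with 37.5% and 37.1%, and 2 or more CCAAT in 23 (46.0%), compared with 11.2% and 13.1%. Both elements stood together in 27 (54.0%), compared with 7.41% and 4.62%.

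The promoters below are those of 5 genes that rose in both species, 1 that rose in both with neither element (KIF18B) and MELK, which had neither element. Each is the stretch of 150 bases that ends at the base before the start of the gene, read 5′ to 3′ on the strand of the gene, with CHR and CCAAT matches of either strand in capitals.
MKI67 (GRCr8 chr1:199952594-199952743, minus strand): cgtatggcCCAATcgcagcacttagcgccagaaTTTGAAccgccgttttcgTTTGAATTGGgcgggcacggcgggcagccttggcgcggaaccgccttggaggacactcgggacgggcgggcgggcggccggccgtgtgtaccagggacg
CDC20 (GRCr8 chr5:137255800-137255949, minus strand): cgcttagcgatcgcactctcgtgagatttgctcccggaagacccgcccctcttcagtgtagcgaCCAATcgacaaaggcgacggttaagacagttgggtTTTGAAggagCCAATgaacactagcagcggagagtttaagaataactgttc
PRC1 (GRCr8 chr1:143659331-143659480, plus strand): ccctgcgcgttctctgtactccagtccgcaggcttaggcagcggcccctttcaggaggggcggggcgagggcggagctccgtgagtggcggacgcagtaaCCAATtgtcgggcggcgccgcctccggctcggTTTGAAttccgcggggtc
CENPA (GRCr8 chr6:31431553-31431702, minus strand): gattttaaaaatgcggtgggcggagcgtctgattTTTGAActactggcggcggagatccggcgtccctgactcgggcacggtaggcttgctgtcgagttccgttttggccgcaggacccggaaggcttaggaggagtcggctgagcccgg
NCAPG (GRCr8 chr14:69645446-69645595, minus strand): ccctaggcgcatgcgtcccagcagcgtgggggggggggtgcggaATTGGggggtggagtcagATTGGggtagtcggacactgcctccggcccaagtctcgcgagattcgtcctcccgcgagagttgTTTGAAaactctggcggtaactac
KIF18B (GRCr8 chr10:88389692-88389841, minus strand): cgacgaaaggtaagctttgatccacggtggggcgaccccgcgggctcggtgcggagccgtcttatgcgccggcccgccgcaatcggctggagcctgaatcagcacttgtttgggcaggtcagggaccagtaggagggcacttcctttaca
MELK (GRCr8 chr5:63336001-63336150, plus strand): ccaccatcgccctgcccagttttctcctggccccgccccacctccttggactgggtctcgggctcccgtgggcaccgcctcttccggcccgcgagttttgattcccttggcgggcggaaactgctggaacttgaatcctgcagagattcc

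The MKI67 stretch holds 2 CHR and 2 CCAAT matches, and 1 CHR runs into the CCAAT on the reverse strand. CDC20 holds 1 CHR flanked by 2 CCAAT. PRC1 holds 1 of each, NCAPG 1 CHR and 2 CCAAT, and CENPA 1 CHR. Over the 50 promoters the 44 CHR matches had a median position of -23.5 bases relative to the start and 28 lay within 50 bases of it, while the 76 CCAAT matches had a median position of -109.5 bases. Of the CHR matches 2 shared letters with a CCAAT match. In 7 promoters neither was found: AURKA, BUB1, KIF18A, KIF18B, KIF2C, MELK and NCAPH. A match is a run of letters, and whether a factor binds there was not measured.

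**Figure D5:**
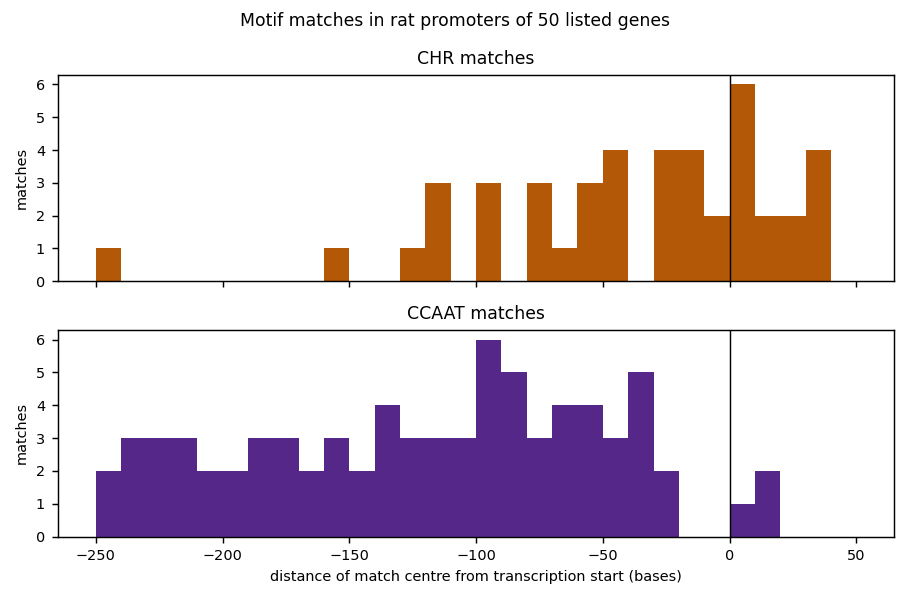
Number of CHR (top) and CCAAT (bottom) matches in 50 rat promoters, in bins of 10 bases, by the distance of the centre of the match from the transcription start. CHR matches gather around the start, with 28 of 44 within 50 bases, and CCAAT matches lie mostly upstream of it.

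Among genes outside the 56, the CHR was found in 11 of 17 promoters of other spindle and cytokinesis genes (64.7%) and in 6 of 8 around cyclin B and CDK1. It was found in 5 of 22 of other kinetochore and centromere genes (22.7%), 2 of 11 of condensin II and cohesin (18.2%) and 1 of 11 of the core anaphase-promoting complex (9.09%). These are counts in short windows and carry no test.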

How the data were processed

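Libraries were made by the authors from 100 ng of RNA with a stranded mRNA kit. The submitters' processing notes name bcl2fastq 2.20, STAR 2.7.3, R 3.6.1 and DESeq2 1.24.0, and the builds mm10 and rn5, with no roles; the counting tool, its strand setting and the annotation are not given in the sources used here. For the mouse the authors deposited a signal, whose values equal (reads + 0.5) over (library 75th percentile + 0.5). Reads recovered from it were whole within 0.01 for 99.0% of values, with 317 symbols that had a value that was not. The rat table deposited by the authors holds estimated counts, equal to reads with 1/6 added, which were taken off before rounding (97.7% whole, 556 symbols with a value that was not). Both scales were worked out from the values. None of the 56 genes was among these symbols, and none matched another symbol in every animal. Both tables use human-style symbols, under which more than 1 rodent gene may be summed.

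Mouse log2 values were tested with limma 3.58.1 (trend, robust) without a further pseudocount where the mean value was at least 0.01. Rat reads were tested with edgeR 4.0.16 (quasi-likelihood, robust, TMM normalization) where the mean was at least 10 reads, in a fit by genotype, and, for the number ranges and their difference, in a fit of 4 groups over all 16 rats. The difference between species was a limma interaction on scaled values of 10598 symbols. P-values were adjusted over all symbols (Benjamini-Hochberg, threshold 0.05) in R 4.3.3. Each library is 1 animal by its label. CPM are reads per 1000000 reads of a library in the table. Depth sets the counting error alone, while group differences are limited by how many animals there were. No pair of libraries was alike within sampling noise (chi-square per degree of freedom of at least 12.7 over 12 mouse and 8.85 over 56 rat pairs). The tests were first tried on simulated data. Alternatives were other pseudocounts, filters, normalizations and tools (edgeR and DESeq2 1.42.0 on the mouse reads), the number range as a covariate, each range alone, and leaving out each animal. The genes, lists, tests and the rule for naming genes were chosen with earlier results of these data known. The rule gave every animal's value (in rats the lowest, median and highest) for 21 genes, for those that did not pass and for the 3 largest changes per comparison, and up to 3 genes per other list. RefSeq promoters are of GRCr8, and exon lengths and overlaps of GENCODE vM21, as no genome of rn5 was used here.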

Additional observations from a re-analysis of the deposited data

Results flagged for a closer look

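In groups of 4 or 8 animals, 5 groups, of 106 tested in mice and 94 in rats, had an animal set apart from the others by Dixon's criterion, which chance gives for about 1 in 20 groups. WT mouse 2 had 1.17 CPM of BUB1B, with the other WT mice at 0.491 to 0.571 CPM. KO mouse 8 had 9.22 CPM of SMC2, with the other KO mice at 11.7 to 12.0 CPM. WT rat 27 had 6.65 CPM of MAD2L1 (others 4.56 to 5.09 CPM) and 1.72 CPM of CKAP2 (others 0.920 to 1.18 CPM). KO rat 30 had 4.33 CPM of NCAPG, with the other KO rats at 2.18 to 3.12 CPM.

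The change in KO differed between the rat number ranges for 10 genes, as rats 25 to 32 minus rats 17 to 24 on the log2 scale: PLK1 1.06, PBK 1.55, MELK -1.30, NUF2 0.93, SPC24 1.03, AURKB 1.32, KIF18B 0.78, NUSAP1 0.83, ESPL1 1.08 and PRC1 0.53. Between species, as rat minus mouse, it differed for SPC24 (1.41), SPC25 (2.66), CENPN (-0.62) and UBE2C (1.60).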

How the results depend on the processing

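No paired analysis was possible because KO and WT animals share no number. Over the settings that changed 1 choice, the count of higher mitotic genes was 49 to 51 in mice, except 27 with a mean value of at least 0.05, where fewer genes were tested, and 44 to 46 in rats. INCENP became the 1 gene lower in rats 25 to 32 when that range was fitted alone. On log2(value + 1) the species difference was called lower for 0 mitotic genes and higher for 4, with BUB1, NDC80 and TTK newly among them. It was called for 333 of all symbols (210 otherwise). The difference changed sign for BUB1 (0.11) and CENPN (0.012), and the cause was not tested.

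Leaving out 1 animal gave 46 to 49 higher genes in mice, 45 to 45 in rats, 38 to 42 in rats 17 to 24 and 44 to 45 in rats 25 to 32, with 0 to 1 lower there (1 without WT rat 19 or 21). Of all symbols, 633 to 1391 were called in mice (1143 with all; 634 and 633 without KO mouse 5 and 6), 496 to 874 in rats 17 to 24 (819 with all; 496 and 540 without WT rat 21 and KO rat 24) and 1025 to 2392 for the difference between ranges (1768 with all; 1138 and 1025 without KO rat 22 and 28). The difference between ranges was higher for 4 to 8 mitotic genes (9 with all). The species difference was called for 109 to 308 symbols (109 without KO mouse 6), higher for 1 to 5 mitotic genes (1 without WT mouse 1 or 4 or KO mouse 6 or 8, 5 without KO rat 18) and lower for 1 to 3 (3 without WT mouse 2 or KO mouse 8, 2 without WT rat 21). CDCA5 in rats 17 to 24 lost its call in 11 of 16 such fits, SMC2 in 5 and MAD2L1 in 2, and CENPN in rats 25 to 32 in 4. On log2(value + 1), ESPL1 in mice and SPC24 and UBE2C between species lost it.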
